A study of Mus musculus with 98 samples.

Results

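Bile acid genes were followed in the livers of mice repopulated with human or murine hepatocytes, as 5 mouse rows and their 5 human counterparts in a table of raw counts per gene. The mouse rows were Cyp7a1, Cyp8b1, Nr0b2, Abcb11 and Slc10a1, taken by symbol. The human rows were CYP7A1, CYP8B1, NR0B2, ABCB11 and SLC10A1, taken by Ensembl identifier (ENSG00000167910, ENSG00000180432, ENSG00000131910, ENSG00000073734 and ENSG00000100652), because the name tables used here hold no human symbols. These are 10 of 37418 rows, of which 19689 are mouse and 17729 human. They were named by the rule without a threshold on any value, though with earlier results of these data known. All 10 were found.

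The series holds 98 samples of 4 tissues, and only its 27 livers bear on these genes. All mice were males of the FRGN strain aged 10 weeks, which carries homozygous deletions of Fah, Rag2 and Il2rg on a non-obese diabetic background. Hepatocytes without Fah die unless nitisinone (NTBC) is given, which leaves room for transplanted cells. In the Hu arm (15 livers) the liver was repopulated with human hepatocytes, and in the Mu arm (12 livers) with murine hepatocytes, the control. Both arms received NTBC at 8 mg/l in cycles of 3 days every 5 weeks, with sulfamethoxazole, trimethoprim and dextrose in the drinking water, and a high energy diet. Livers were taken at zeitgeber time (ZT, hours after lights on) 2, 6, 10, 14, 18 and 22. The Hu arm has 3 livers at ZT 2, 6 and 18 and 2 at the other times, and the Mu arm has 2 at each time. Mice were selected for human repopulation above 70%, and the number of human donors is not given in the sources used here. A Hu liver keeps its mouse bile ducts, vessels and immune cells beside any remaining mouse hepatocytes, so that its mouse rows come from a mixture. In such bulk samples, fewer cells of a type and less RNA per cell cannot be told apart.

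Bile acids are made from cholesterol in hepatocytes, secreted into bile, reabsorbed in the ileum and taken up again from portal blood. CYP7A1 catalyses the rate-limiting first step of the classic pathway, and CYP8B1, a sterol 12-alpha hydroxylase, sets how much of the product is cholic acid. NR0B2, also called SHP, is a nuclear receptor without a DNA-binding domain that represses CYP7A1 and CYP8B1, and it is induced by the bile acid receptor FXR (gene Nr1h4). ABCB11, the bile salt export pump, moves bile salts across the canalicular membrane into bile and is another FXR target. SLC10A1, also called NTCP, takes bile salts up from blood at the basolateral membrane. In mouse liver Cyp7a1 is known for a strong daily rhythm under the circadian clock.

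The mouse genes lie, on GRCm38 with GENCODE M21, at chr4:6265612-6275633 (Cyp7a1, ENSMUSG00000028240, minus strand, 8 distinct exons), chr9:121914356-121916305 (Cyp8b1, ENSMUSG00000050445, minus strand, 1 exon), chr4:133553376-133556536 (Nr0b2, ENSMUSG00000037583, plus strand, 2 exons), chr2:69238282-69342616 (Abcb11, ENSMUSG00000027048, minus strand, 37 distinct exons) and chr12:80953183-80968705 (Slc10a1, ENSMUSG00000021135, minus strand, 13 distinct exons). The deposited counts are per Ensembl gene, and whether they were made over exactly these loci was not checked. Of the 5, 4 have an entry that ends at this gene start in the RefSeq promoter table for GRCm38.p6, and Cyp7a1 is named only. Upstream stretches of 3 genes are printed because they carry letters known to be read by regulators in the lists below, at chr9:121916306-121916555 (Cyp8b1, minus strand), chr4:133553126-133553375 (Nr0b2, plus strand) and chr2:69342617-69342866 (Abcb11, minus strand). Each runs 5′ to 3′ over the 250 bases before the gene start, with motif matches in capitals.
Cyp8b1: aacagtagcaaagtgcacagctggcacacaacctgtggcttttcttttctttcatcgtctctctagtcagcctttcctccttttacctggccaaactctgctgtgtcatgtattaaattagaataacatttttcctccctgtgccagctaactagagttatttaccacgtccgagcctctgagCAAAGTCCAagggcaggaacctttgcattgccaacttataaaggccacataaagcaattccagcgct
Nr0b2: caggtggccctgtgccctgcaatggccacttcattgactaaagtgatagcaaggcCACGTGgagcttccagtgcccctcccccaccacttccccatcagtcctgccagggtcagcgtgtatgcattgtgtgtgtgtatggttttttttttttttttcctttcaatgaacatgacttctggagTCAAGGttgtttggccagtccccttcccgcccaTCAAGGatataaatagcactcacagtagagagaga
Abcb11: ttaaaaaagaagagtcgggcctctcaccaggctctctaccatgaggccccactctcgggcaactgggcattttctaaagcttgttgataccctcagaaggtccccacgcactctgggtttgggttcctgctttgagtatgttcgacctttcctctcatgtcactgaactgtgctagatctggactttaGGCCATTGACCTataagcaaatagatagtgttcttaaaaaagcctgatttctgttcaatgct
The capitals in Abcb11 mark GGCCATTGACC, a match to an inverted repeat read by the pair of FXR and its partner RXR (searched as GGNCA, then N, then TGACC), at -62 to -52 from the start, which 0.198% of all 32851 upstream stretches of that length hold on either strand. Its last bases overlap AGGTCA on the other strand, a core shared by many nuclear receptors that 14% of stretches hold. In Nr0b2 they mark CACGTG, the E-box of clock and other factors, at -195 to -190 (6.02% of stretches) and TCAAGG, the core read by Nr5a2, at -68 to -63 and again at -35 to -30 (12.5%). In Cyp8b1 they mark CAAAGTCCA, a core of the repeat read by Hnf4a, at -67 to -59 (0.384%). TTANGTAA, the D-box of Dbp and Nfil3, was searched as well, is held by 2.06% of stretches, and is not in these windows. The stretch of Slc10a1 holds none of the letters searched. The motifs were searched on both strands and are a description of letters, not of binding.

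Levels are given in CPM, the count of a gene per 1000000 counts of the same species in the library, so that mouse and human values have separate denominators. Hu livers held 7.70 to 87.9 M mouse counts and 12.05 to 103.4 M human counts, and Mu livers 97.1 to 118.3 M mouse counts. The share of human counts was 15.9 to 93.1% in Hu livers, with 11 of 15 under 70%, and 0.00592 to 0.0204% in Mu livers. In Hu livers its mean was 41.7, 49.6, 73.8, 73.8, 67.0 and 47.6% at ZT 2, 6, 10, 14, 18 and 22. Human share and time of day were thus not independent there. Mouse Fah, deleted in the host, had a median of 21.5 CPM in Hu livers, against 528 in Mu livers. The 10 hepatocyte markers, all detected, summed to 16042 to 107011 CPM in Hu (median 81914) and 91528 to 112059 CPM in Mu livers (median 102383). Alb carried most of that sum, with medians of 58523 in Hu and 62039 CPM in Mu livers. The lowest sum belonged to the Hu liver at ZT 18, replicate 3, which also had the highest human share and the lowest mouse depth. The 5 pericentral hepatocyte markers, led by Cyp2e1 and Glul, summed to 278 to 1091 CPM in Hu against 5645 to 9444 CPM in Mu livers, and the 4 periportal ones to 76.6 to 1484 against 1833 to 2317 CPM. Cholangiocyte (7 markers, 262 to 1591 against 90.002 to 197 CPM), Kupffer (6 markers, 523 to 3583 against 365 to 658 CPM), stellate (6 markers, 597 to 9426 against 361 to 576 CPM) and sinusoidal endothelial markers (6 markers, 311 to 3191 against 259 to 295 CPM) had higher median sums in Hu. Spp1 carried most of the cholangiocyte sum (median 471 CPM in Hu livers), and 1 of its 7 markers, Slc10a2, was lower in Hu (median 12.4 against 41.5 CPM). Of 4 ileal markers, which include Apoa4, a gene that liver expresses too, Fabp6 was at or near 0 in both arms, with a highest value of 1.43 CPM. The part of these cell types in the results below was not tested. In Mu livers the human member rows held 0 to 14 counts, so that mouse reads hardly reached them. In the Hu liver at ZT 18, replicate 3, 22310 counts fell on human CYP7A1 and 0 on mouse Cyp7a1, and 58283 fell on human CYP8B1 and 7 on mouse Cyp8b1.

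The first comparison asks how the mouse genes of bile acid handling differ in level between the mouse part of Hu livers and Mu livers. Both synthesis enzymes were lower in Hu by 66.9-fold (Cyp7a1) and 50.3-fold (Cyp8b1) in the fit, and the uptake transporter was 9.88-fold lower. The export pump was 2.20-fold lower in Hu, a call lost with another scaling (below), and the direction for the repressor depended on the scaling. In edgeR's quasi-likelihood test, 5 of 5 mouse members differed in level with TMM scaling (trimmed mean of M values), all lower in Hu (Nr0b2 was higher with another scaling, below), where 79.5% of the 14977 mouse genes tested differed and 37% were lower. TMM put the median difference of all genes at 0.07 on the log2 scale.

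Cyp7a1, the rate-limiting enzyme, had a lowest value of 1.67, a median of 27.4 and a highest value of 421 CPM in Mu livers. In Hu livers these values were 0, 0.454 and 9.64 CPM. Of 15 Hu livers, 14 lay below every Mu liver, and the exception was the Hu liver at ZT 6, replicate 1, with 755 counts. In 2 Hu livers there were 0 counts, which allows up to 0.0862 CPM at ZT 10 in replicate 1 and 0.390 CPM at ZT 18 in replicate 3 (3 counts, counting error only). The fitted log2 difference, Hu minus Mu, was -6.06 ± 0.62 (SE; edgeR adjusted p = 5.96e-09), and without the ZT 6 liver it was -6.87. Mouse Cyp7a1 passed the count filter through Mu livers only, so that the size of this difference rests on few counts in Hu livers. Cyp8b1, the 12-alpha hydroxylase, ranged from 123 to 404 CPM in Mu livers, with a median of 314 CPM. In Hu livers it ranged from 0.287 to 33.9 CPM, with a median of 8.59 CPM. The arms did not overlap, and the log2 difference was -5.65 ± 0.43 (edgeR adjusted p = 5.94e-11). How many of all mouse genes lack overlap between arms was not counted, so the lack of overlap is not particular to these genes as far as known.

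Slc10a1, the uptake transporter, ranged from 315 to 685 CPM in Mu livers (median 447 CPM) and from 12.9 to 139 CPM in Hu livers (median 71.5 CPM). Again the arms did not overlap, with a log2 difference of -3.30 ± 0.32 (edgeR adjusted p = 2.32e-09). The share of all genes without overlap was not counted, where 79.5% of mouse genes tested differed in level. Abcb11, the export pump, ranged from 297 to 791 CPM in Mu (median 519 CPM) and from 83.9 to 597 CPM in Hu livers (median 324 CPM). The arms overlapped, 6 of 15 Hu livers lay below every Mu liver, and the log2 difference was -1.14 ± 0.24 (edgeR adjusted p = 0.000145). That call was lost when libraries were scaled by the summed counts of the 10 hepatocyte markers, with a difference of -0.20 (adjusted p = 0.238). Most of these counts are from Alb, so that this scaling rests largely on 1 gene.

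Nr0b2, the repressor, ranged from 29.5 to 95.9 CPM in Mu livers (median 57.7 CPM) and from 14.7 to 86.1 CPM in Hu livers (median 67.9 CPM), so that plain CPM gave a higher median in Hu. The TMM fit gave a log2 difference of -0.52 ± 0.22 (edgeR adjusted p = 0.0352), and the hepatocyte marker scaling gave 0.49 (adjusted p = 0.0205), the opposite sign. Leaving out 1 liver at a time, the TMM call was lost in 9 of 27 fits. No direction is therefore given for Nr0b2. Under the hepatocyte marker scaling the log2 differences of the other members were -5.42 for Cyp7a1, -4.71 for Cyp8b1 and -2.39 for Slc10a1, each still past the threshold. The pericentral markers, which include genes expressed in the same zone as Cyp7a1, were lower in Hu in the same libraries, and their part in these differences was not tested.

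**Figure D1:**
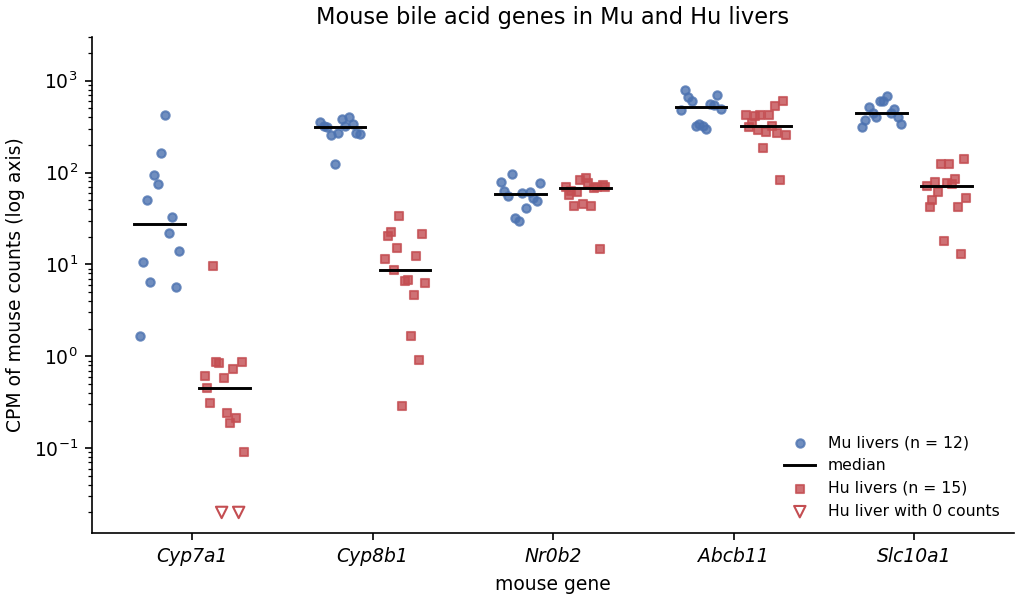
CPM of mouse counts (log axis) of the 5 mouse genes in each of 12 Mu livers (circles) and 15 Hu livers (squares), with black bars for medians and open triangles for livers with 0 counts, drawn at the foot of the axis. Cyp8b1 and Slc10a1 do not overlap between arms, Cyp7a1 overlaps through 1 Hu liver, and Nr0b2 and Abcb11 overlap widely. The share of all mouse genes without overlap was not counted.

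Levels per kilobase of exon allow genes to be set against each other, here with GENCODE M21 exons, which may differ from those counted. The order of median levels in Mu livers was Slc10a1 (203 CPM per kb), Cyp8b1 (161), Abcb11 (101), Nr0b2 (51.0) and Cyp7a1 (6.56). The ranges of Slc10a1 (143 to 311 CPM per kb) and Cyp8b1 (63.0 to 207) overlap, as do those of Cyp8b1 and Abcb11 (57.8 to 154). At its highest liver Cyp7a1 reached 101 CPM per kb, which falls within the range of Abcb11. In Hu livers the order of medians was Abcb11 (63.0 CPM per kb), Nr0b2 (60.0), Slc10a1 (32.5), Cyp8b1 (4.40) and Cyp7a1 (0.109), so that the export pump and the repressor led and both enzymes came last. Abcb11 and Nr0b2 did not differ beyond their ranges there, at 16.3 to 116 and 13.0 to 76.1 CPM per kb.

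The second comparison asks whether these genes followed a daily rhythm. In Mu livers 1 of 5 mouse members was rhythmic, Cyp7a1, where 17.3% of mouse genes tested were. In Hu livers 0 of 5 were, where 0.167% of genes tested were, and 0 of 5 differed in rhythm between arms, where 1.28% did. The count filter worked by arm, and mouse Cyp7a1 passed it through Mu livers, not through Hu livers alone. Its tests in Hu livers and between arms thus rest on few Hu counts and do not show that a rhythm was absent. At an unadjusted p under 0.05 the counts over all genes were 2373 in Hu and 3146 for a different rhythm.

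In Mu livers Cyp7a1 stood at 1.67 and 10.6 CPM at ZT 2, 6.49 and 50.3 CPM at ZT 6, and 75.9 and 94.6 CPM at ZT 10. It reached 162 and 421 CPM at ZT 14 and returned to 22.2 and 32.5 CPM at ZT 18 and 5.68 and 14.1 CPM at ZT 22. Both livers at ZT 14 lay above every other Mu liver, and both at ZT 10 above all livers of the remaining times. The fitted 24 h cosine had an amplitude (log2 distance from mean to peak) of 2.64 ± 0.51 and a peak at ZT 12.7 ± 0.729 h, shortly after lights off, with a fitted peak-to-trough ratio of 39.0 (edgeR adjusted p = 0.00389). The call held in each of the 27 fits that left out 1 liver (adjusted p at most 0.0298). It was lost with the hepatocyte marker scaling (amplitude 2.69, adjusted p = 0.0509), though not when Hu ZT 18 replicate 3 was left out as well (adjusted p = 0.00412), and with library sizes over all rows (amplitude 2.63, adjusted p = 0.0866).

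In Hu livers mouse Cyp7a1 was at 0.603, 0.454 and 0.307 CPM at ZT 2, at 9.64, 0.871 and 0.855 CPM at ZT 6, and at 0 and 0.576 CPM at ZT 10. It was at 0.239 and 0.187 CPM at ZT 14, the time of the Mu maximum, at 0.720, 0.214 and 0 CPM at ZT 18 and at 0.861 and 0.0917 CPM at ZT 22. No Hu liver at ZT 14 rose above the Hu median of 0.454 CPM. The fitted amplitude was 1.65 ± 0.62 with a peak at ZT 5.47 (edgeR adjusted p = 0.217), and without the ZT 6 liver with 755 counts it was 0.62 (adjusted p = 0.746). The difference in rhythm between arms had an adjusted p of 0.0656, and leaving out 1 liver at a time brought it under 0.05 in 3 of 27 fits, those without Hu ZT 2 replicate 2, Hu ZT 6 replicate 1 or Mu ZT 6 replicate 1. DESeq2 without its outlier rule gave 0.0220, and the alternatives ranged from that value to 0.438.

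**Figure D2:**
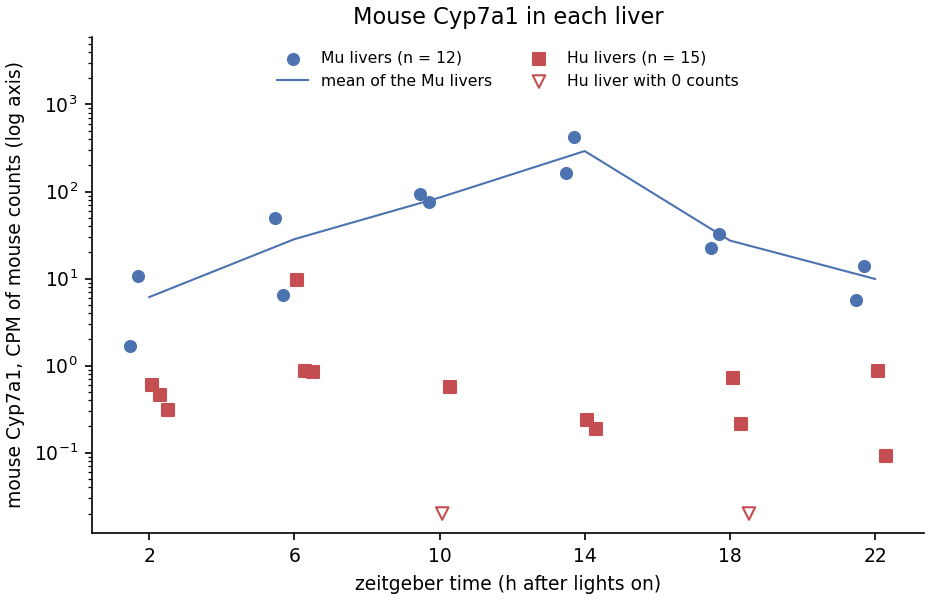
CPM of mouse Cyp7a1 (log axis) against zeitgeber time, with circles for 12 Mu livers, a line through their means, squares for 15 Hu livers, shifted sideways for legibility, and open triangles for 2 Hu livers with 0 counts. Mu livers climb from ZT 2 to a maximum of 162 and 421 CPM at ZT 14, while 14 of 15 Hu livers stay below 1 CPM at all times.

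The other mouse members did not pass the test for rhythm in Mu livers. Abcb11 stood at 481 and 791 CPM at ZT 2, 598 and 669 CPM at ZT 6, 323 and 334 CPM at ZT 10, 297 and 324 CPM at ZT 14, 546 and 562 CPM at ZT 18 and 492 and 698 CPM at ZT 22. The 4 livers of ZT 10 and 14 were thus the lowest of the 12. Its cosine had an amplitude of 0.56 ± 0.25 with a peak at ZT 0.405 (edgeR adjusted p = 0.305). Slc10a1 was lowest at ZT 2 (315 and 377 CPM) and ZT 22 (341 and 401 CPM) and highest at ZT 14 (604 and 685 CPM), with an amplitude of 0.39 ± 0.31 and a peak at ZT 12.9 (adjusted p = 0.658). With the Mu arm fitted alone, which leaves Hu livers out of the filter, the scaling and the error, both passed, at edgeR adjusted p = 0.0168 for Abcb11 and 0.0238 for Slc10a1. That fit called 21 genes of the pathway lists below, against 8 in the joint fit, and its share over all mouse genes was not counted. These 2 calls are therefore not set against a background. Nr0b2 (amplitude 0.42 ± 0.24, peak ZT 0.447, adjusted p = 0.444) and Cyp8b1 (0.26 ± 0.38, adjusted p = 0.896) did not pass in either fit. Nr0b2 was nonetheless lowest at ZT 10, at 29.5 and 31.8 CPM, below the other 10 Mu livers.

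The human rows of Hu livers address the same question in the transplanted cells. None of 5 human members was rhythmic, where 1.08% of the 12832 human rows tested were, and 2463 rows had an unadjusted p under 0.05. CYP8B1 came closest, at 394 to 475.6 CPM at ZT 2 and 6 (6 livers) and 521 to 627 CPM at ZT 10 and 14 (4 livers), times grouped after its values were seen. It stood at 454 to 564 CPM at ZT 18, which overlaps both ranges, and at 468 and 473 CPM at ZT 22. Its cosine had an amplitude of 0.18 ± 0.06 with a peak at ZT 14.2 ± 1.21 h (edgeR adjusted p = 0.174), a fitted peak-to-trough ratio of 1.28. DESeq2 gave an adjusted p of 0.0479, and the edgeR alternatives gave 0.144 to 0.773. ABCB11 had an amplitude of 0.23 ± 0.11 (adjusted p = 0.422) and SLC10A1 of 0.10 ± 0.10 (adjusted p = 0.782).

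Human CYP7A1 varied widely between livers, also between livers of the same time. It stood at 520, 54.8 and 51.3 CPM at ZT 2, at 771, 391 and 568 CPM at ZT 6, and at 0.321 and 253 CPM at ZT 10. It stood at 761 and 257 CPM at ZT 14, at 763, 172 and 216 CPM at ZT 18 and at 669 and 22.6 CPM at ZT 22. At ZT 10 there were 22 counts in replicate 1 and 24889 in replicate 2. The cosine had an amplitude of 0.22 ± 0.72 (edgeR adjusted p = 0.985), and the biological coefficient of variation was 1.16, the 8th highest of 12832 human rows. NR0B2 also varied, from 3.22 to 79.0 CPM with a median of 16.4 CPM (coefficient of variation 0.748, rank 171; amplitude 0.40 ± 0.42, adjusted p = 0.816). The highest liver exceeded the lowest 2402-fold for CYP7A1 and 24.5-fold for NR0B2, against 2.79-fold for ABCB11 (175 to 489 CPM), 1.59-fold for CYP8B1 (394 to 627 CPM) and 1.56-fold for SLC10A1 (169 to 263 CPM). The error of 0.72 on the amplitude of CYP7A1 is large, so that the fit does not show that a rhythm was absent.

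**Figure D3:**
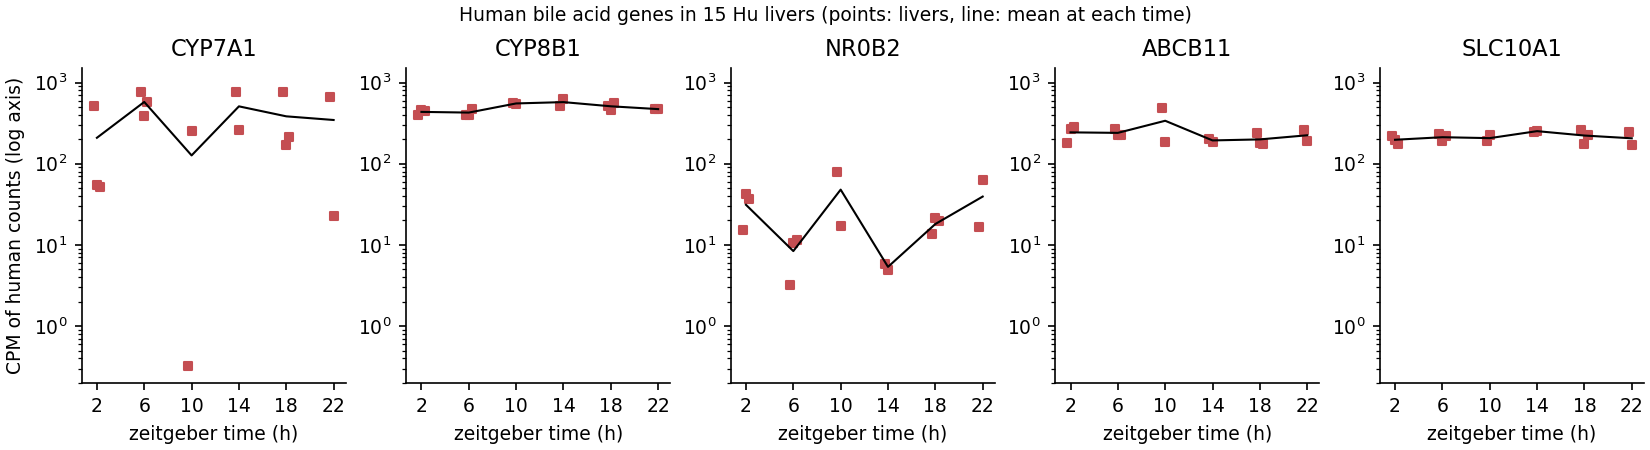
CPM of human counts (log axis) of the 5 human genes against zeitgeber time in 15 Hu livers, with squares for livers and a line through the means. CYP8B1 and SLC10A1 stay within narrow bands at all times, as does ABCB11 apart from ZT 10 (489 and 188 CPM). CYP7A1 and NR0B2 spread widely among livers of the same time, down to 0.321 CPM for CYP7A1 at ZT 10.

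Across the 15 Hu livers, human CYP7A1 and NR0B2 were inversely related. How many other pairs of human genes pass in these livers was not counted. The relation is thus not known to be particular to this pair, and its cause was not tested. Relations between the members of a species were computed on log2 CPM with TMM and a prior count of 2. They covered 10 pairs each in human rows of Hu, mouse rows of Hu and mouse rows of Mu livers, 30 in all. This family was added after seeing the data, with permutation p-values (100000 draws) and Benjamini-Hochberg adjustment over the 30. For CYP7A1 and NR0B2, Pearson's r was -0.748 (p = 0.00026, adjusted p = 0.0026) and Spearman's rho was -0.836 (p = 0.00027). Without the 2 livers farthest from the median of CYP7A1, ZT 10 replicate 1 and ZT 22 replicate 2, r was -0.696, and leaving out 1 liver at a time gave -0.793 to -0.727. On residuals of the cosine fit, which take time out, r was -0.871. The 4 livers with the lowest CYP7A1, at 0.321 to 54.8 CPM, were the 4 with the highest NR0B2, at 36.3 to 79.0 CPM.

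CYP7A1 rose with SLC10A1 (r = 0.803, permutation p = 3e-05, adjusted p = 0.00045; rho = 0.882, p = 3e-05; 0.782 without the 2 farthest livers). NR0B2 fell as SLC10A1 rose (r = -0.757, p = 0.00103, adjusted p = 0.00555; rho = -0.771, p = 0.00127; -0.733 without the 2 farthest livers). The range of SLC10A1 behind these relations is small, 1.56-fold. The relation of CYP8B1 and NR0B2 did not pass (r = -0.278, permutation p = 0.315, adjusted p = 0.377, rho = -0.096, p = 0.732). ABCB11 was not related to NR0B2 either (r = 0.238, adjusted p = 0.437; rho = 0.086, p = 0.766), and its relation to CYP7A1 (r = -0.481, adjusted p = 0.118; rho = 0.054, p = 0.854) rested on 1 liver, being 0.18 without ZT 10 replicate 1 and 0.014 without the 2 farthest. The labels name no batch within which these relations could be computed.

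**Figure D4:**
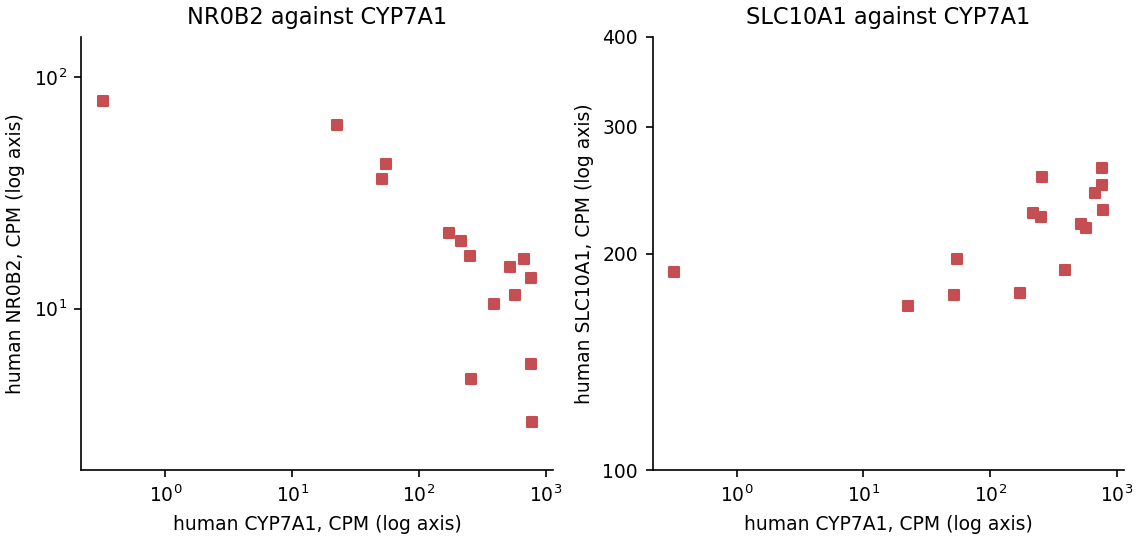
Human NR0B2 (left) and human SLC10A1 (right) against human CYP7A1 in 15 Hu livers, all in CPM of human counts on log axes, 1 square per liver. NR0B2 declines with CYP7A1 (r = -0.748) over 24.5-fold, while SLC10A1 increases with it (r = 0.803) within 169 to 263 CPM. Both r are from log2 CPM with TMM, which the axes leave out.

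In the 12 Mu livers the sign for Cyp7a1 and Nr0b2 was the same, but the relation did not pass (r = -0.626, permutation p = 0.0300, adjusted p = 0.0599; rho = -0.601, p = 0.0426; -0.542 without the 2 farthest livers). Cyp7a1 was inversely related to Abcb11 (r = -0.740, permutation p = 0.00672, adjusted p = 0.0183; rho = -0.706, p = 0.0128; -0.819 without the 2 farthest) and rose with Slc10a1 (r = 0.745, p = 0.00648, adjusted p = 0.0183; rho = 0.741, p = 0.00789; 0.557 without the 2 farthest). On residuals of the cosine fit these 3 values were -0.300, -0.078 and 0.196, so that these relations were smaller with time of day taken out. In mouse rows of Hu livers all 10 pairs had a positive r, from 0.514 for Cyp7a1 and Nr0b2 to 0.929 for Abcb11 and Slc10a1. Of these, 9 passed after adjustment, and Cyp7a1 with Nr0b2 did not (adjusted p = 0.12). By Spearman's rho, Cyp8b1 with Nr0b2, Abcb11 and Slc10a1 (permutation adjusted p = 0.166, 0.168 and 0.339) and Nr0b2 with Abcb11 (0.0749) did not pass. How many other pairs of mouse genes pass in these livers was not counted. For the 5 pairs among Cyp8b1, Nr0b2, Abcb11 and Slc10a1 other than Abcb11 with Slc10a1, r was 0.076 to 0.510 without the 2 farthest livers. These were ZT 18 replicate 3, the liver with the lowest sum of mouse hepatocyte markers, and ZT 10 replicate 1. The inverse relation of CYP7A1 and NR0B2 was thus seen in human rows and not in mouse rows of the same livers. That contrast between species was not itself tested.

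Whether the level of a member goes with the degree of humanization was asked with the share of human counts as a slope in Hu livers. No member row passed. Among mouse rows 41.7% of 13879 genes tested did, and among human rows 0% did (1665 at an unadjusted p under 0.05). Mouse Abcb11 had a log2 slope of -0.27 ± 0.11 per 10 percentage points (edgeR adjusted p = 0.0642), Slc10a1 of -0.26 ± 0.17 (0.238), Nr0b2 of -0.16 ± 0.11 (0.260) and Cyp8b1 of -0.07 ± 0.23 (0.824). Mouse Cyp7a1 had too few counts to enter this fit. Among human rows, CYP7A1 had a slope of -0.39 ± 0.30 (adjusted p = 0.582) and NR0B2 of 0.19 ± 0.21 (0.709), and those of the other 3 lay between -0.03 and 0.04. The liver with the lowest CYP7A1 had a human share of 66.3%, against a median of 58.7% over Hu livers.

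Mouse and human genes of a pair were then compared in rhythm, as the distance between their fitted cosine terms on log2 CPM, over 5 pairs with Benjamini-Hochberg adjustment. Between human rows of Hu and mouse rows of Mu livers no pair passed (permutation of arms within time). Abcb11 came closest, with amplitudes of 0.22 (peak ZT 6.29) in human and 0.55 (peak ZT 0.378) in mouse rows, a distance of 0.58 (permutation p = 0.0140, adjusted p = 0.0702). For Cyp7a1 the amplitudes were 0.59 and 2.72 and the distance was 3.08 (permutation p = 0.0838, adjusted p = 0.187). Within the same Hu livers, where an exact test swaps the species within each liver, Cyp8b1 passed: its human row had an amplitude of 0.18 with a peak at ZT 14.2, and its mouse row an amplitude of 1.72 with a peak at ZT 1.66, a distance of 1.89 (p = 0.00885, adjusted p = 0.0443). Mouse Cyp8b1 in Hu livers was at 11.4 to 22.4 CPM at ZT 2 and at 0.287 to 6.78 CPM at ZT 10 and 14. The mean human share was 41.7% at ZT 2 and 73.8% at both ZT 10 and ZT 14. The ZT 2 livers with shares of 15.9, 35.3 and 73.9% had mouse Cyp8b1 at 11.4, 22.4 and 20.3 CPM. The part of the human share in this difference was not tested. The call was lost in 10 of 15 tests that left out 1 liver (adjusted p at most 0.222), and in edgeR's fit the mouse row alone was not rhythmic (amplitude 1.28 ± 0.36, adjusted p = 0.191). The other 4 pairs had adjusted p-values of 0.475 to 0.756.

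The levels of the 2 species across Hu livers were positively related for Cyp7a1 (r = 0.646, permutation p = 0.0173, adjusted p = 0.0576; rho = 0.693, p = 0.00558; 0.870 without the 2 farthest livers) and Slc10a1 (r = 0.573, p = 0.0231, adjusted p = 0.0576; rho = 0.807, p = 0.00042; 0.820 without the 2 farthest livers), which just missed the threshold over 5 pairs. On residuals of the cosine fit both passed, with r = 0.776 (adjusted p = 0.0017) for Cyp7a1 and 0.639 (adjusted p = 0.0268) for Slc10a1. Cyp8b1 (r = -0.382), Nr0b2 (r = -0.067) and Abcb11 (r = 0.213) had adjusted p-values of 0.2695 to 0.797. In the liver at ZT 10, replicate 1, both CYP7A1 rows were at their lowest, with 22 human and 0 mouse counts.

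Around the members, 6 lists of mouse genes of bile acid handling hold 51 genes, the 5 members included, of which 49 were tested. Under TMM scaling 43 differed in level, 8 higher and 35 lower in Hu, with a median log2 difference of -1.05, where 79.5% of all genes differed, 42.5% higher and 37% lower, with a median of 0.07. A share of called genes this near the background says nothing particular of the lists. Under the hepatocyte marker scaling 19 were higher and 15 lower, with a median of 0.06, where 93.9% of all calls were higher and the median of all genes was 1.43. Statements on direction below name where the latter scaling turned a called sign.

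Of 17 synthesis genes, 14 were lower and 2 higher in Hu (median -2.07), against 37% lower and 42.5% higher over all genes. With the hepatocyte marker scaling 11 were lower and 4 higher (median -1.14), and the calls of Akr1d1 (-0.44, adjusted p = 0.0539) and Hsd17b4 (0.02, adjusted p = 0.899) were lost. After Cyp7a1 and Cyp8b1 the largest falls were in Cyp46a1, which makes 24-hydroxycholesterol (-4.50 ± 0.49; medians of 199 CPM for Mu and 5.40 CPM for Hu livers), and Cyp7b1, the oxysterol 7-alpha hydroxylase of the alternative pathway (-4.46 ± 0.25; 245 and 18.4 CPM). Cyp27a1, which starts that pathway (-2.64 ± 0.18), the peroxisomal carrier Scp2 (-2.49 ± 0.21), Hsd3b7, which acts after Cyp7a1 (-2.33 ± 0.16), and Baat, which conjugates bile acids with taurine or glycine (-2.20 ± 0.26), were lower as well. These 6 stayed lower and past the threshold with the hepatocyte marker scaling, at -3.64, -3.33, -1.46, -1.50, -1.22 and -1.30. Cyp39a1, the 24-hydroxycholesterol 7-alpha hydroxylase, was higher in Hu (2.05 ± 0.32; median 27.8 against 5.68 CPM), as was Ch25h (1.62 ± 0.38), which lies at 0.503 and 0.117 CPM. Acot8 turned from -0.68 to 0.57 under the hepatocyte marker scaling, past the threshold in both.

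Of 4 genes of basolateral uptake 3 were lower: Slco1a1 (-8.59 ± 0.63), with medians of 879 (Mu) and 1.38 CPM (Hu), Slco1b2 (-3.86 ± 0.27; 1241 and 121 CPM) and Slc10a1. All 3 genes of basolateral export that were tested were higher: Slc51b, a subunit of the OST transporter (3.75 ± 0.32; medians of 0.160 for Mu and 2.99 CPM for Hu), Abcc4 (3.49 ± 0.35; 21.7 and 642 CPM) and Abcc3 (1.13 ± 0.14; 194 and 684 CPM). Slc51a, the partner of Slc51b, was at or near 0 in both arms, with a highest value of 0.0255 CPM. The canalicular drug exporter Abcb1a was higher (3.99 ± 0.23; medians of 2.61 for Mu and 79.0 CPM for Hu). These directions of uptake and export were the same under the hepatocyte marker scaling, which gave 3 lower, 0 higher for uptake and 3 higher, 0 lower for basolateral export. Among 7 canalicular genes the count was 2 higher and 2 lower with TMM and 5 higher and 0 lower with the hepatocyte marker scaling. Atp8b1 turned from -0.31 to 0.88, and Abcb4, the phospholipid floppase (0.11, adjusted p = 0.646), to 1.06 (adjusted p = 2.07e-07).

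Of 14 nuclear receptors and regulators tested, 12 were lower and 1 higher in Hu with TMM (median -0.88), and 1 was lower and 6 higher with the hepatocyte marker scaling (median 0.21). That scaling without Hu ZT 18 replicate 3, chosen after seeing the data, gave 5 lower and 6 higher. Nr1i3, the receptor CAR, was lower in both (-2.42 ± 0.28 and -1.44), and Gpbar1, the membrane bile acid receptor, was higher in both (3.07 ± 0.56 and 4.69) at medians of only 0.712 (Hu) and 0.0290 CPM (Mu). Nr1h4, which encodes FXR, was at -1.40 ± 0.12 with TMM, at -0.14 (adjusted p = 0.599) with the hepatocyte marker scaling and at -0.51 (adjusted p = 7.31e-06) with that scaling without the ZT 18 liver. Fgfr4, the receptor that answers ileal FGF15, was at -1.44 ± 0.12, -0.22 (adjusted p = 0.347) and -0.52 (adjusted p = 1.58e-06) in the same order. Its co-receptor Klb was at 0.24 (adjusted p = 0.297) with TMM and 1.22 with the hepatocyte marker scaling. Nr5a2, Nr1i2 and Foxa2 turned from lower to higher, each past the threshold in both. Fgf15 itself was at 0 to 0.419 CPM and was not tested.

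In rhythm, 8 of the 49 genes passed in Mu, a share near the 17.3% of all mouse genes tested, and 2 in Hu livers, where 0.167% of all did. The 4 clock regulators of Cyp7a1 and Nr0b2 all passed in Mu; their levels were lower in Hu with TMM for 4 of 4 and, with the hepatocyte marker scaling, lower for 0 and higher for 1. Nr1d1, the repressor REV-ERB alpha, peaked at ZT 7 with an amplitude of 3.65, Dbp at ZT 9.70 (3.39), Bhlhe40 at ZT 16.1 (1.10) and Nfil3 at ZT 22.6 (0.98). Mouse Cyp7a1 thus peaked after Nr1d1 and Dbp and before Bhlhe40. The others were Hsd3b7 (peak ZT 2.80, amplitude 0.69, edgeR adjusted p = 0.0154), Nr1h4 (ZT 12.02, 0.44, 0.0369) and Atp8b1 (ZT 19.4, 0.64, 0.00573). In Hu livers Nr1d1 (amplitude 2.09) and Dbp (2.30) passed, and a different rhythm was found for Nr1d1 (adjusted p = 0.0240) and Bhlhe40 (1.10 in Mu against 0.48 in Hu, adjusted p = 0.0449). Mouse Cyp7a1, which did not pass in Hu livers, had a median of 0.454 CPM there, against 24.2 for Nr1d1 and 10.3 CPM for Dbp. The difference in Cyp7a1 rhythm between arms did not pass either (edgeR adjusted p = 0.0656), and the genes were not tested against each other.

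**Figure D5:**
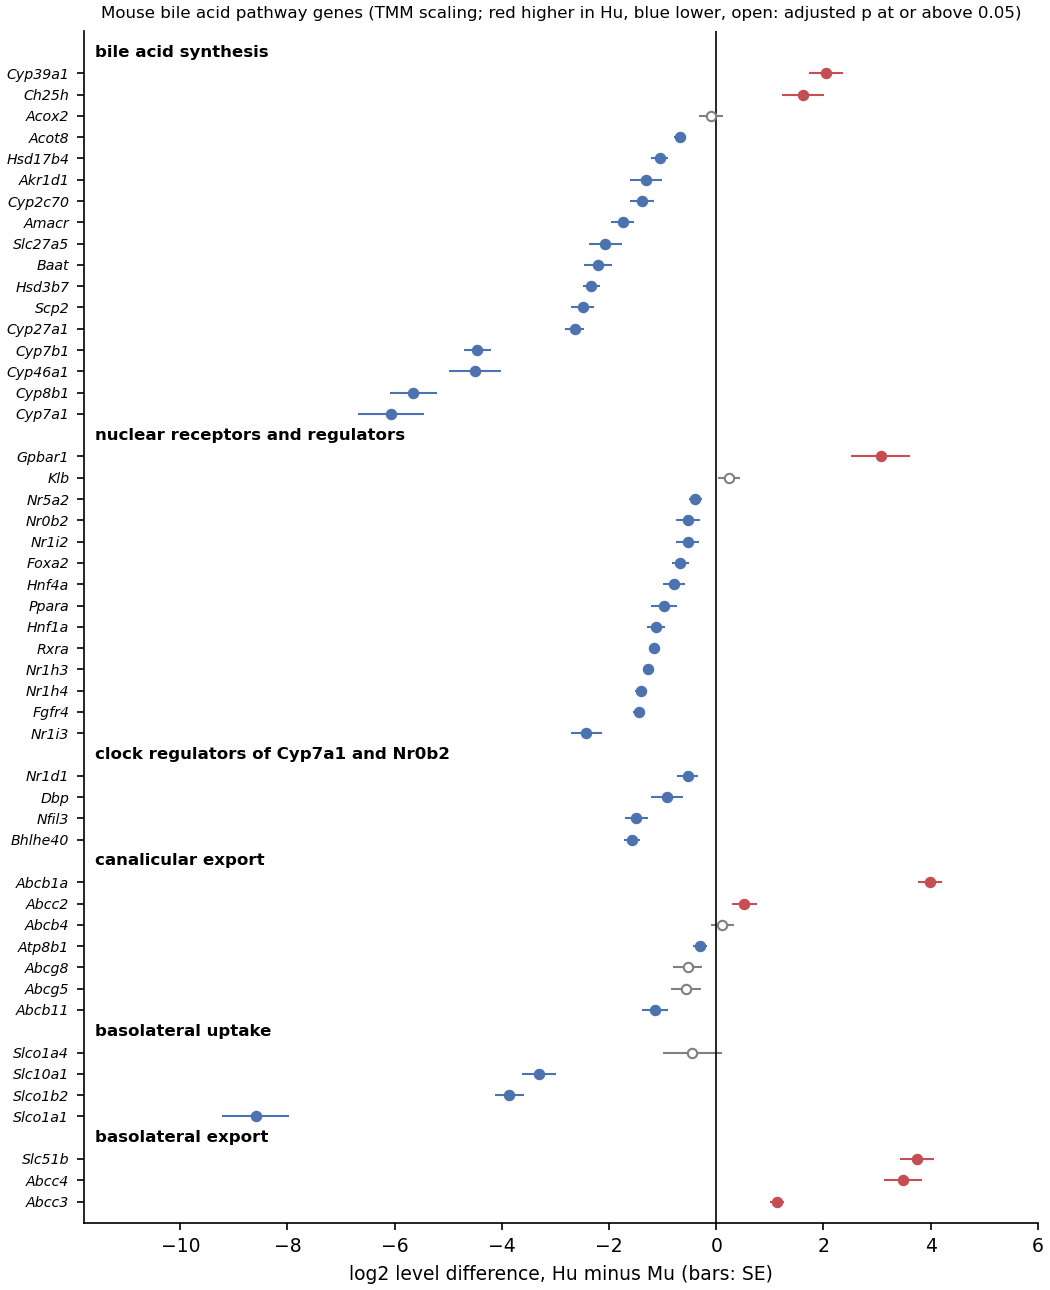
Log2 level difference (Hu minus Mu, TMM scaling) of 49 mouse genes of bile acid handling by list, with SE bars, red for genes called higher in Hu, blue for lower and open symbols for adjusted p at or above 0.05. Most synthesis genes (14 of 17) and 3 of 4 uptake genes lie on the left as called lower, with Cyp39a1 and Ch25h on the right, and the 3 basolateral export genes lie on the right, while several regulators and canalicular genes change sign when libraries are scaled by hepatocyte markers (Nr0b2 from -0.52 to 0.49).

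As a description, the mouse genes whose log2 CPM followed each member most closely over the 12 Mu livers, among 14976 others, were Cpm (r = 0.973), Epb41 (0.959) and Snx10 (0.955) for Cyp7a1. For Cyp8b1 they were Prss53 (0.918), Selenbp2 (0.908) and Ldhd (0.8996), and for Nr0b2 Id3 (0.927), Dynll2 (0.922) and Med8 (0.894). For Abcb11 they were Fam160a1 (0.979), Pi4k2a (0.950) and Asb13 (0.942), and for Slc10a1 Mmp15 (0.956), Kalrn (0.955) and Dhdh (0.949). These points share library and time of day.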

How the data were processed

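Liver RNA was measured with a strand-keeping library kit, per the labels. The authors deposited whole-number raw counts per gene, without normalization, 1 column per library, with a row for each Ensembl gene of either species. The submitters' processing notes name STAR, GRCm38 (mm10), GRCh38 (hg38) and hg19, with no roles; the counting program and how reads fitting both species were assigned, are not given in the sources used here. The sources used here do not say that each library is a separate animal, so p-values measure the spread between these samples, which may be technical.

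Mouse rows (27 livers) and human rows (15 Hu livers) were fitted apart with edgeR 4.0.16 in R 4.3.3: filterByExpr, TMM, an intercept, the arm and 24 h cosine and sine terms per arm, quasi-likelihood F tests, and Benjamini-Hochberg adjustment over all genes tested at a threshold of 0.05. The humanization test used Hu livers with the human share as a covariate. Printed CPM use the species' total count, without TMM. Pairs and relations were tested on log2 CPM with TMM (prior count 2), unlike the printed CPM. These tests used 100000 permutations (smallest p 1e-05) or all 32768 swaps within livers (Python 3.11.15). DESeq2 1.42.0 was an alternative; its outlier rule gave no adjusted p for mouse Cyp7a1. Library sizes over all rows were used without TMM, which would undo them. The tests were checked on simulated data. Named genes are the members, the fixed pathway lists, 3 genes most like each member, the label checks and marker lists. Members, lists and motifs were chosen with earlier results of these data known. Floors are 3 counts. All 27 liver columns were used; the other tissues were not used here.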

Additional observations from a re-analysis of the deposited data

Results flagged for a closer look

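Cyp8b1 was the only one of 5 pairs whose rhythm differed between the human and mouse rows of the same Hu livers, with a distance of 1.89 between the fitted log2 cosine terms (exact test over swaps within 15 livers, p = 0.00885, adjusted p = 0.0443). It is listed because the difference itself passed a test. Without replicate 3 at ZT 2 and in 9 other tests that left out 1 liver it did not pass, and with matched replicate numbers only the adjusted p was 0.127. Mouse Cyp8b1 had 7 to 1602 counts in these livers, human CYP8B1 5640 to 58283. The human share differed between times (means of 41.7% at ZT 2, within 15.9 to 73.9%, and 73.8% at ZT 10 and 14), and its part was not tested. No group could be searched for single outlying livers, since groups held 2 or 3.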

How the results depend on the processing

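The level calls of Cyp7a1, Cyp8b1 and Slc10a1 kept direction and threshold in every alternative that gave a value, the 27 fits without 1 liver included. The count of 5 members stayed at 4 to 5. The Abcb11 call was lost with the hepatocyte marker scaling (-0.20, edgeR adjusted p = 0.238), also without Hu ZT 18 replicate 3 (-0.22, adjusted p = 0.142). Nr0b2 reversed to 0.49 with the hepatocyte marker scaling and to 0.47 (adjusted p = 0.00794) with that scaling and without Hu ZT 18 replicate 3, an alternative chosen after seeing the data, as was DESeq2 without its outlier rule; the cause was not tested. These scalings put the median difference of all genes at 1.43 and 0.97 and the share of calls higher in Hu at 93.9 and 90.5%, and library sizes over all rows at -0.70 and 21.7%, against 0.07 and 53.5%. Same-numbered libraries of both arms had correlations of deviations of 0.0129 to 0.312 over 12 pairs, positive in all and over 0.1 in 7, so that the numbers may share something, but not every pair passed 0.1 and the labels name nothing shared; they were not taken as pairs. The replicate number as a block changed the Nr0b2 call (-0.45, adjusted p = 0.0921), made the Abcb11 pair of human Hu against mouse Mu rows pass (1 pair, adjusted p = 0.0429) and ended the Cyp8b1 call within Hu livers (0 pairs, 0.0528); no other count moved by over 1.5 times under the block.

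The count of members rhythmic in Mu (1) was 0 with library sizes over all rows, with hepatocyte marker scaling and with DESeq2, where Cyp7a1 had no adjusted p, and 3 with each arm fitted alone; pathway genes rhythmic in Mu (8) were 2, 2 and 21 in the first, second and last of these, and 13 with hepatocyte marker scaling without Hu ZT 18 replicate 3. Library sizes over all rows gave 2 members and 25 pathway genes rhythmic in Hu (0 and 2), and hepatocyte marker scaling 1 pathway gene. A different rhythm was found for 1 member with DESeq2 without its outlier rule and for 0 to 1 without 1 liver. DESeq2 gave 1 rhythmic human member. For the fit of each arm alone, the share of all genes that passed was not counted.

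Member rows going with the human share (0) were 6 with library sizes over all rows, where human ABCB11 and SLC10A1 reversed to 0.28 and 0.29 (by construction, human rows then rise with the human share), and 1 each without a filter, with the log2 ratio of human to mouse counts, without time terms and with DESeq2; without 1 liver 0 to 1. Pairs differing in rhythm between human Hu and mouse Mu rows were 0 to 2 without 1 liver. Within Hu livers they were 0 with matched replicate numbers only, and 0 to 3 without 1 liver, 3 without ZT 10 replicate 1. Pairs related in level (0) were 1 with a prior count of 0.5, 2 each without TMM, with matched replicate numbers only and on residuals, and 0 to 2 without 1 liver (2 without ZT 18 replicate 3). The low mouse depth of some Hu livers, down to 7.70 M counts, limits mouse Cyp7a1 and Cyp8b1 there.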

Other observations

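The Hu liver at ZT 10, replicate 1, singled out after its values were seen, stood at the ends of several distributions at once. Its human CYP7A1 was the lowest of 15, at 0.321 CPM, its human NR0B2 the highest, at 79.0 CPM, and its human ABCB11 the highest, at 489 CPM, with the next liver at 286 CPM. Its human CYP8B1, at 566 CPM, and human SLC10A1, at 189 CPM, lay within the range of the other livers. In its mouse rows Cyp7a1 had 0 counts, Cyp8b1 was the lowest of 15, at 0.287 CPM, and Slc10a1 the second lowest, at 18.2 CPM, while mouse Nr0b2 was at 45.5 CPM. It held 68.6 M human and 34.8 M mouse counts.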
